A study of Mus musculus with 24 samples.

Results

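Brain endothelial cells of mice lacking Sox17 in endothelium (KO) were followed over 4 days of postnatal life, between postnatal day 5 (P5) and postnatal day 9 (P9). The 6 libraries were all those labelled KO at these stages, 3 at P9 and 3 at P5, out of 24 libraries in the series. The change at P9 relative to P5 in KO cells is called the KO course. The 6 control libraries (wt), 3 at P9 and 3 at P5, gave the wt course over the same days.

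All animals carried Sox17flox/flox, so both genotypes had floxed alleles. KO animals also carried Cdh5(PAC)-Cre-ERT2, a recombinase that is driven by the promoter of the endothelial cadherin gene and becomes active with tamoxifen, and wt animals did not carry it. Pups of both genotypes and both stages received 100 µg of tamoxifen at postnatal day 1, so the P9 animals were also later after the injection. Brains at P9 were dissociated with the Adult Brain Dissociation kit, against the Neural Tissue Dissociation kit (P) at P5. Age and kit cannot be told apart within either course, whereas the difference between the 2 courses compares genotypes that shared both. Leukocytes were removed with CD45 beads, endothelial cells were then captured with CD31 beads, and polyadenylated RNA was sequenced in stranded libraries. The labels state independent biological replicates and do not say whether a library pooled animals or which exons were floxed.

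Sox17 belongs to the SoxF transcription factors, with Sox7 and Sox18, and is known for roles in arterial identity and in vessel stability. In the first postnatal weeks brain endothelium still divides and sprouts, while it acquires the transporters and tight junctions of the blood-brain barrier. Canonical Wnt signalling, carried by beta-catenin and Lef1, drives much of that barrier programme.

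The 6 KO libraries held 13339133 to 19140480 counts. Levels are given as CPM, counts scaled to the TMM library size. The floor for a count of 0, taken as 3 counts in a library, was 0.169 to 0.252 CPM, which covers counting error only. Pearson's r between replicates over the genes tested was 0.971 to 0.985 in P9 KO and 0.986 to 0.989 in P5 KO, the first being the lowest of the 8 groups. Endothelial markers were high in all 6 libraries. The 24 endothelial identity genes summed to 28712 to 33718 CPM in P9 KO, against 22401 to 24506 CPM in P5 KO. In bulk samples, fewer cells of a type and less RNA per cell cannot be told apart.

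Sox17 itself, at chr1:4490931-4497354 on the minus strand of mm10, had 18.9, 23.9 and 27.2 CPM in the 3 P9 KO libraries, against 15.1, 19.1 and 15.8 CPM in P5 KO. The wt libraries had 354, 335 and 311 CPM at P9 and 306, 227 and 298 CPM at P5. Every KO library lay below every wt library of the same days, and P9 KO and P5 KO overlapped in part. The KO course of Sox17 was 0.49 (log2 fold change, adjusted p = 0.16) and did not pass the threshold of 0.05, although it passed without the low-count filter (adjusted p = 0.0018) and in the fit of P5 and P9 libraries alone (adjusted p = 0.02). Of the other SoxF genes, Sox18 rose by 1.16 ± 0.22 (log2 ± SE) in the KO course, and it also rose in the wt course by 0.88, with no difference past the threshold. Sox7 had a change of 0.08 in the KO course.

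More genes moved in the KO course than in the wt course. Of 17159 genes tested, 5923 (34.5%) passed an adjusted p of 0.05 in the KO course, 3007 (17.5%) higher at P9 and 2916 (17%) lower. In the wt course 879 (5.12%) passed, 458 (2.67%) higher and 421 (2.45%) lower. The difference between the courses, tested as an interaction in the same fit, passed in 2695 genes (15.7%), 1247 (7.27%) higher in the KO course and 1448 (8.44%) lower. With DESeq2 size factors the same difference gave 1579 higher and 1175 lower. Scaled to the endothelial identity genes, which lowered the median of all genes by 0.38 in the KO course and 0.28 in the difference, the split was 426 higher and 3245 lower. The wt count rested on single libraries. It fell to 305 without P9 wt replicate 2, 364 without P5 wt replicate 3, 439 and 448 without P9 wt replicates 1 and 3, and 546 without P5 wt replicate 1, and was 1359 without P9 KO replicate 3.

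**Figure D1:**
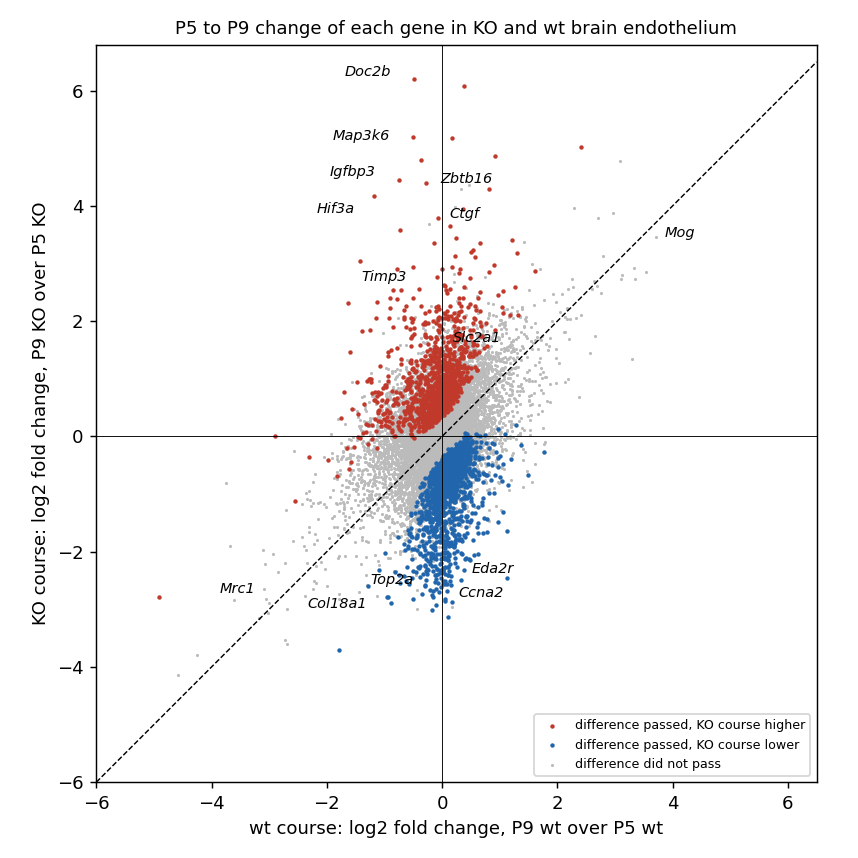
Each point is 1 of 17159 genes, with the log2 fold change of P9 KO over P5 KO on the vertical axis and of P9 wt over P5 wt on the horizontal axis. Red and blue points passed the test of the difference between courses, 1247 higher and 1448 lower in the KO course, and the dashed line marks equal change. Doc2b, Map3k6 and Igfbp3 lie far above the line, with wt changes of -0.48, -0.50 and -0.74, while Mog and Mrc1 lie close to it.

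The genes that passed the difference fell into classes by their calls in each course. In 2287 genes (13.3%) the KO course alone was called, and 112 (0.653%) had a call in the wt course alone. Both courses were called with the same sign and a larger KO change in 51 genes (0.297%), with a smaller KO change in 4 (0.0233%), and with opposite signs in 36 (0.21%). The other 205 (1.19%) passed for the difference with neither course called. A further 3545 genes (20.7%) were called in the KO course without a call for the difference. A wt call was rarer, so a gene called in the KO course alone is not thereby shown to be flat in wt. In these 2 courses, which share no library, Pearson's r of the log2 fold changes across the 17159 genes was 0.350 and Spearman's rho was 0.281. Genes are not independent replicates, so both are descriptions. Among the 879 genes called in the wt course, 83.6% moved in the same direction in the KO course.

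Some genes were called in the same direction in both genotypes. Mog, a component of myelin made by oligodendrocytes, rose in the KO course by 3.47 ± 0.34 and in the wt course by 3.71. The macrophage genes Mrc1 and Cd68 fell, with log2 fold changes of -2.82 and -2.59 in the KO course (log2), against -3.06 and -2.00 in the wt course. F13a1 and Fam71a, among the largest KO falls, had -3.78 and -4.15 in the KO course, against -4.26 and -4.59 in the wt course. None of these 5 genes passed for the difference.

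P9 KO had more genes beyond all other libraries of the series than any other group. This count is not a distance between groups, as a group alike to the other genotype of its stage can hold few such genes. In 878 genes (5.12%) all 3 P9 KO libraries were above the other 21 libraries, which include E15.5 and adult brain endothelium, and in 348 genes (2.03%) all 3 were below. For the other 7 groups these counts ranged from 50 to 230 above and 37 to 339 below.

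Of the 24 endothelial identity genes, 13 rose and 5 fell in the KO course, where 17.5% of all genes rose and 17% fell, and 5 rose and 7 fell when scaled to the list itself. Clec14a, a surface lectin of endothelium, rose by 1.53 ± 0.15 and the transcription factor Gata2 by 1.39 ± 0.10, with 251, 285 and 246 CPM in P9 KO and 92.7, 99.7 and 106 CPM in P5 KO. Robo4 and Ptprb, receptors of endothelium, rose by 0.93 ± 0.12 and 0.82 ± 0.10. All 4 passed for the difference. Pecam1, the gene of the CD31 protein used for capture, had 0.26 (adjusted p = 0.057) and passed at 0.31 with DESeq2 size factors and at 0.32 without P9 KO replicate 3.

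Genes of cell division fell in the KO course. All 34 genes of the cell cycle list, replication and mitosis genes, were called lower, with a median log2 fold change of -1.94, while the median of all genes was 0.0047. In the wt course the list's median was 0.04 and no member was called, with the same fit and threshold. The difference passed in 33 of the 34, and E2f1, an activator of replication genes named after its values were seen, was the exception at -0.55 (adjusted p = 0.099). The difference of E2f1 passed under endothelial scaling at -0.83 and without P9 KO replicate 1 at -0.69. The KO course of E2f1 lost its call without P5 KO replicate 2 or P9 KO replicate 2.

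Top2a, the topoisomerase that untangles replicated chromosomes (chr11:98992943-99024189, minus strand), had 48.5, 41.4 and 41.4 CPM in P9 KO, against 206, 233 and 213 CPM in P5 KO. The P9 KO libraries were all low and did not overlap P5 KO, and the wt groups averaged 181 CPM at P9 and 179 CPM at P5. The fall was -2.31 ± 0.15 (log2, adjusted p = 7.5e-11). Ccna2, the cyclin of S phase and G2, had 13.4, 13.2 and 8.92 CPM in P9 KO, against 67.8, 79.4 and 65.8 CPM in P5 KO, a change of -2.58 ± 0.17. Tpx2, a spindle assembly factor, changed by -2.27 ± 0.13, the kinesin Cenpe by -2.30 ± 0.14 and Mcm4, a subunit of the replicative helicase, by -1.97 ± 0.12. Outside the list, the largest falls of the difference included further division genes: Shcbp1 at -2.84, the histone chaperone Asf1b at -2.92, the kinetochore gene Spc24 at -2.82 and the DNA repair gene Fanci at -2.77 (log2).

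Summed over the list, P9 KO had 660.1 to 776 CPM, against 2265 to 2612 CPM in P5 KO. P9 wt had 2089 to 2198 CPM and P5 wt 1907 to 2341 CPM. The P9 KO sum lay below all E15.5, P5 and P9 wt libraries and above adult libraries, which held 291 to 332 CPM in KO and 277 to 327 CPM in wt. Scaled to endothelial identity genes the median of the list was -2.31 and all 34 members were again called lower. Pericyte markers also fell in the KO course, as given below, and their part in this result was not tested.

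Promoters of cell cycle genes often carry a CHR element and CCAAT boxes, which bind the MuvB complexes and NF-Y. Windows of 250 bases before to 50 bases after each start were taken from RefSeq (GRCm38.p6), for 11932 of the 17159 genes tested. A CHR was searched as TTTGAA or TTCGAA and a CCAAT box as CCAAT, both on either strand, and TTCGAA, which reads the same on both strands, was counted once. A CHR and a CCAAT match may share a letter and were counted separately. A CHR stood in 14 of 28 windows of the cell cycle list (50.0%) and in 13.6% of all 15253 windows. CCAAT stood in 22 of 28 (78.6%), against 37.0% of all. Of windows of genes lower in the KO course for the difference, 290 of 1378 held a CHR, and of those higher 146 of 1293. These are matches of letters and were given no test. The windows of Top2a and Cdk1, chosen after their values were seen, are shown with CHR and CCAAT matches in capitals, at chr11:99024140-99024439 and chr10:69352863-69353162, both on the minus strand and written 5′ to 3′.
Top2a: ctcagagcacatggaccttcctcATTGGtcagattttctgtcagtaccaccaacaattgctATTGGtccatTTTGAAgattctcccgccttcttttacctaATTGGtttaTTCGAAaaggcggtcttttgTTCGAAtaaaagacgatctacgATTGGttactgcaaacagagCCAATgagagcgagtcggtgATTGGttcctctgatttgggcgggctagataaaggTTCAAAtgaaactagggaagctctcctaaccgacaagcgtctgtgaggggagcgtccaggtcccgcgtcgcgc
Cdk1: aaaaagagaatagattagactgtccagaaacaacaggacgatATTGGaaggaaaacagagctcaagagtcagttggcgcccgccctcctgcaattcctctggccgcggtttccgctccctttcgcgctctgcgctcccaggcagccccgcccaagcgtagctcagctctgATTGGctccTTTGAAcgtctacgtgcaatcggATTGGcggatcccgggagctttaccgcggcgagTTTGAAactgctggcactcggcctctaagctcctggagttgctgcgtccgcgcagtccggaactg
The Top2a window holds 4 CHR and 6 CCAAT matches, and the Cdk1 window 2 and 3. Cdk1, the kinase that starts mitosis, fell by 1.22 ± 0.11 in the KO course.

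Inhibitors of division moved in part. Of 14 CDK inhibitor and quiescence genes, 5 rose and 2 fell, the falls being near the 17% of all genes. Btg2, an antiproliferative gene, had 701, 875 and 846 CPM in P9 KO, against 246, 216 and 212 CPM in P5 KO, and rose by 1.85 ± 0.12. The CDK inhibitors Cdkn2b and Cdkn1b rose by 1.57 ± 0.14 and 1.10 ± 0.13, and Cdkn2b rose in wt too, by 0.78. Ccng1, a cyclin induced by p53, fell by 1.34 ± 0.21. Under endothelial scaling the median of the list turned to -0.14.

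Genes known to be induced by glucocorticoid hormones rose together in the KO course. Of 31 listed genes, 25 rose, 1 fell, and 5 did not pass, with a median log2 fold change of 1.69, and 26 were called higher for the difference. In the wt course the median was -0.04. The list also holds Nr3c1, the gene of the glucocorticoid receptor itself, and this is the 1 that fell, at -0.44 ± 0.12. Its difference between courses did not pass, except under endothelial scaling at -0.53. Several of these genes also respond to other signals, and no hormone was measured.

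Map3k6, a stress kinase at chr4:133240818-133252929 (plus strand), had 185, 281 and 103 CPM in P9 KO, against 4.58, 4.09 and 6.42 CPM in P5 KO and 3.36 and 4.76 CPM on average in P9 wt and P5 wt. All P9 KO libraries were far above the rest, with replicate 3 the lowest, and the log2 rise was 5.19 ± 0.35. Hif3a, a relative of the hypoxia factors (chr7:17031507-17062427, minus strand), had 228, 266 and 238 CPM in P9 KO, against 16.4, 6.59 and 17.2 CPM in P5 KO. It fell by 1.18 in the wt course and rose by 4.17 ± 0.26 in the KO course. Zbtb16, a zinc finger repressor, rose by 4.40 ± 0.29, with 139, 143 and 129 CPM in P9 KO and 8.57, 3.05 and 7.32 CPM in P5 KO. Galnt15 rose by 3.94 ± 0.22, the sulfotransferase Sult1a1 by 3.36 ± 0.21 and Klf9, a hormone-responsive repressor, by 2.19 ± 0.14. Fkbp5 and Tsc22d3, classical receptor targets named after their values were seen, rose by 1.73 ± 0.17 and 1.79 ± 0.18. Sgk1, also a receptor target, had 0.34 in the KO course (adjusted p = 0.054) and passed there with DESeq2 size factors at 0.38 and without P9 KO replicate 1 at 0.45. It fell by 0.95 in wt, and its difference was 1.29 ± 0.19.

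Summed over the 31 genes, P9 KO had 6663 to 9327 CPM, against 3384 to 3597 CPM in P5 KO, and the wt libraries of the same days had 2786 to 3014 CPM at P9 and 3067 to 3214 CPM at P5. Adult libraries of both genotypes lay below P9 KO. Under endothelial scaling 22 rose and the median was 1.28. The astrocyte marker list also rose in the KO course, as given below, and its part in this result was not tested.

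A receptor binding site was searched as GNACA, 3 free bases and TGTNC, on either strand. It stood in 0.387% of all windows and in 3 of 35 windows of this list (8.57%), where a gene can have more than 1 window. Windows of all genes higher in the KO course held it in 11 of 2990 (0.368%), near the share of all windows, and those of genes lower in 11 of 2644 (0.416%). For the difference these were 12 of 1293 (0.928%) and 3 of 1378 (0.218%). These matches were given no test. Matching windows of 2 list members called in the KO course are shown with the match in capitals: Map3k6 at chr4:133240568-133240867 and Mt1, a metallothionein, at chr8:94178839-94179138, both on the plus strand. Mt1 was named after its values were seen and rose by 1.74 ± 0.20.
Map3k6: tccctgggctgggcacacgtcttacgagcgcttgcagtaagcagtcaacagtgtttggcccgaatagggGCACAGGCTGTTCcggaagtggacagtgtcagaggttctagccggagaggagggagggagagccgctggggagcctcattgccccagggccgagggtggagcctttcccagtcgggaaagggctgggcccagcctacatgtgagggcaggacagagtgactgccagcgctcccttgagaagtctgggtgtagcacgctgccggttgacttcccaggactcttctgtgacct
Mt1: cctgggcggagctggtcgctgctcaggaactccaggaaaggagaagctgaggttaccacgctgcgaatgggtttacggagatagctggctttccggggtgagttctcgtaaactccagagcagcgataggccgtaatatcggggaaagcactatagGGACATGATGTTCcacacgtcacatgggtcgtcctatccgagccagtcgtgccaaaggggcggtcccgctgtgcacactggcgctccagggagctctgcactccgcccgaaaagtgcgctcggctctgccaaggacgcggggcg
The match starts 181 bases before the start in Map3k6 and 94 bases before it in Mt1. The third match is in a window of Sgk1.

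**Figure D2:**
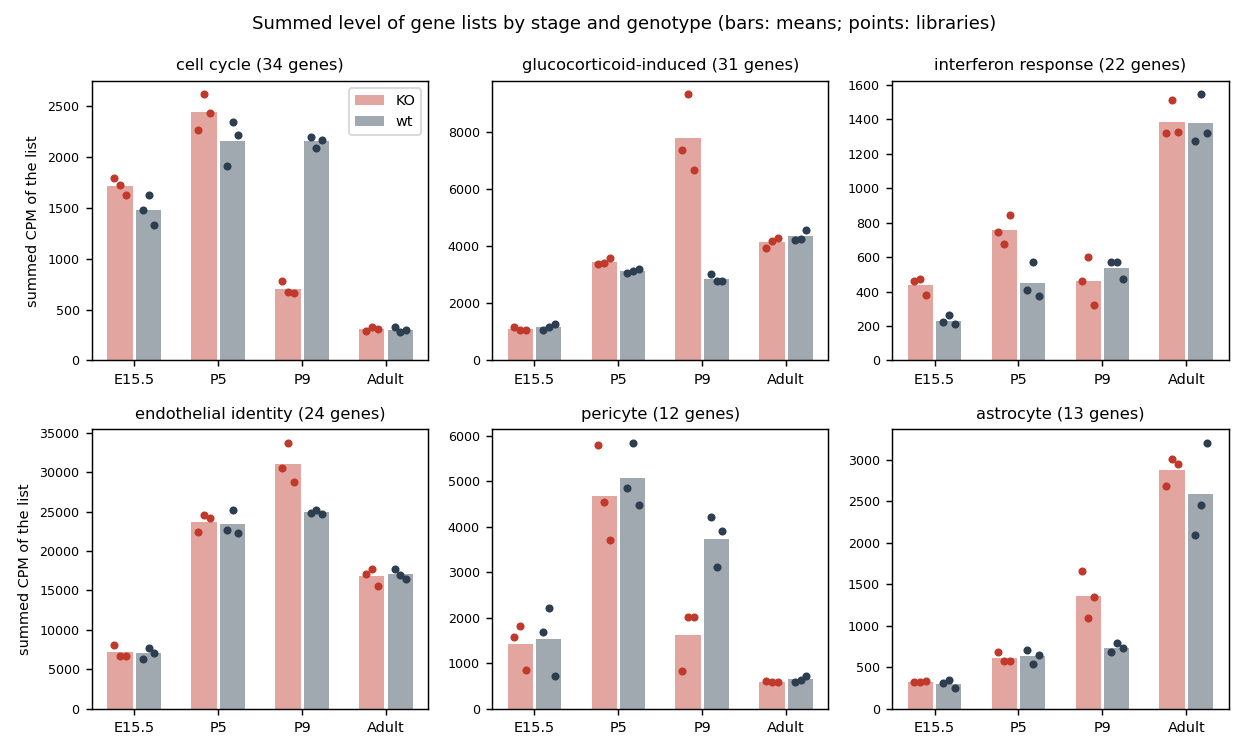
Bars are mean summed CPM over the genes of a list and points are single libraries, for each stage in order and with KO left of wt. The cell cycle sum of P9 KO lies below P5 and P9 wt, the glucocorticoid-induced sum of P9 KO above all other groups, and the pericyte sum of P9 KO below P9 wt.

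Several of the largest rises of the KO course were in genes of low level at P5. Doc2b, a calcium sensor of vesicle fusion (chr11:75768966-75796049, minus strand), had 176, 204 and 106 CPM in P9 KO, against 1.79, 2.57 and 1.91 CPM in P5 KO. The 2 wt groups averaged 1.32 and 1.91 CPM at P9 and P5, and the rise was 6.20 ± 0.31 (adjusted p = 2.7e-12). Igfbp3, a binding protein of insulin-like growth factors (chr11:7206086-7213923, minus strand), had 2317, 2716 and 1625 CPM in P9 KO and 136, 69 and 101 CPM in P5 KO, a rise of 4.44 ± 0.28. Of 17 genes of the insulin-like growth factor system, 4 rose and 7 fell. The receptors Igf1r and Insr rose by 1.16 ± 0.16 and 0.83 ± 0.12, and Igfbp4 fell by 1.33 ± 0.14. Lcn2, an iron-binding acute phase protein, varied widely within P9 KO, at 101, 307 and 20.6 CPM, against 3.72, 3.12 and 4.62 CPM in P5 KO. Its 3 P9 KO libraries still lay above all others.

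**Figure D3:**
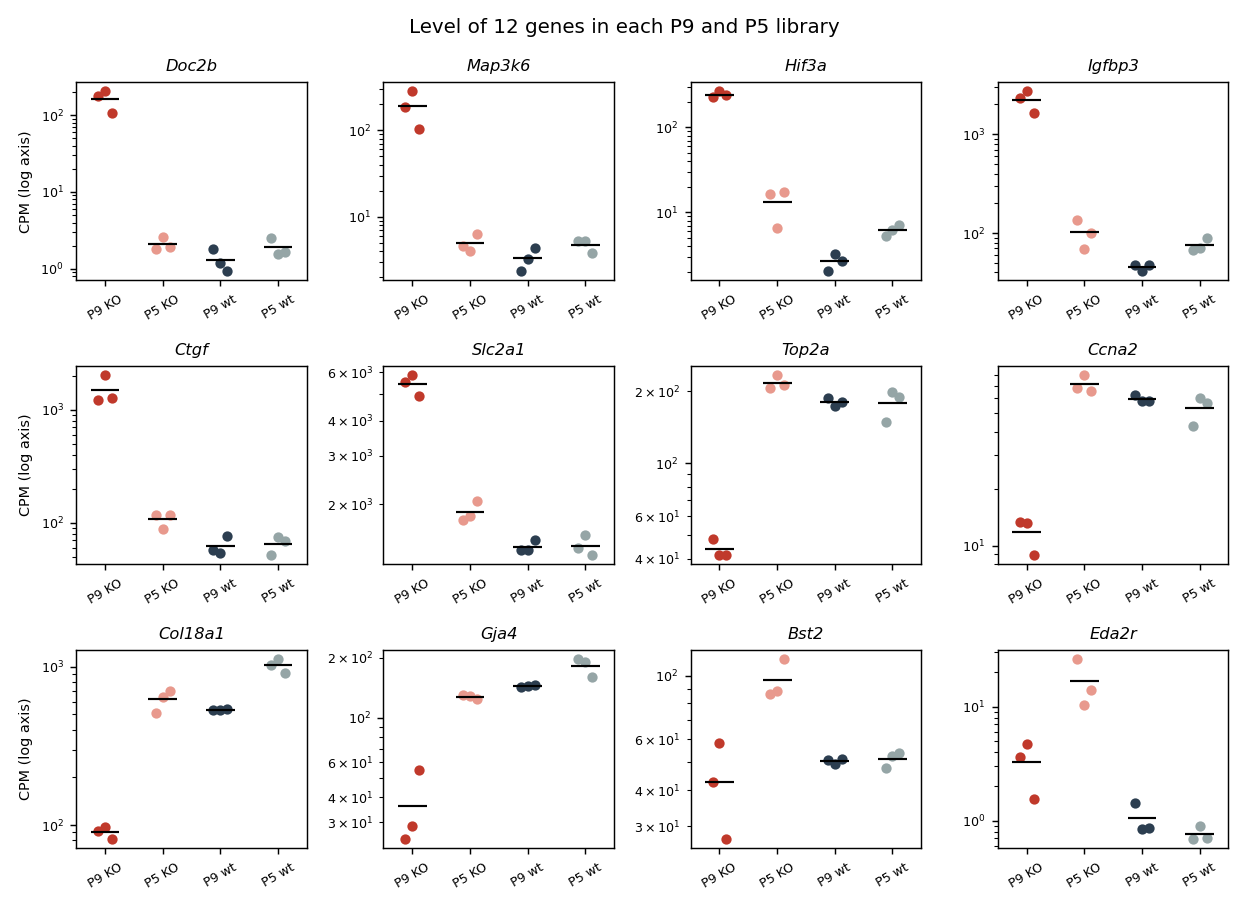
Each panel plots 1 gene as CPM on a log axis, with the 3 libraries of P9 KO, P5 KO, P9 wt and P5 wt from left to right and black bars at the means. P9 KO stands above or below the other 3 groups in most panels, while Bst2 and Eda2r are highest in P5 KO.

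Transporters of the blood-brain barrier were called higher more often than lower. Of 25 barrier transporters, 14 rose and 4 fell in the KO course (median 0.60), where 17.5% of all genes rose and 17% fell. The falls were thus near the share of all genes. The difference passed upward in 8 and downward in 2, against 7.27% and 8.44% of all genes. That upward count was 5 without P5 KO replicate 2, P5 wt replicate 2 or P9 wt replicate 1 or 3. Slc2a1, the glucose transporter of the barrier (chr4:119108711-119137983, plus strand), had 5538, 5849 and 4925 CPM in P9 KO, against 1763, 1817 and 2065 CPM in P5 KO. The wt libraries held 1369.8, 1364 and 1484 CPM at P9 and 1396, 1555 and 1312 CPM at P5, so P9 KO was highest and P5 KO also lay above every wt library. The rise was 1.53 ± 0.13 (difference 1.55 ± 0.17). The glutamate transporter Slc1a1 and the efflux pump Abcc4 rose by 2.06 ± 0.14 and 1.42 ± 0.13. Slc38a5, a glutamine transporter, fell by 1.24 ± 0.14. Under endothelial scaling 10 transporters rose and 9 fell. Mfsd2a, the lipid transporter that restrains transcytosis, had a change of -0.01 that did not pass, and was called at -0.39 under endothelial scaling.

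Of 20 tight junction genes, 7 rose and 1 fell (11 rose without P9 KO replicate 3), where 17.5% of all genes rose and 17% fell. None passed for the edgeR difference, where 15.7% of all genes passed and 5124 had an unadjusted p under 0.05. Other settings did call members: Esam passed for the difference in 7 alternatives and Cldn5 in 4, the DESeq2 test and DESeq2 size factors among both, all upward. Cldn5, the main claudin of the barrier, rose by 0.57 ± 0.13, with 7167, 9688 and 6721 CPM in P9 KO and 4629, 5618 and 5621 CPM in P5 KO. Ocln and Esam rose by 0.55 ± 0.14 and 0.55 ± 0.12. Cdh5, the endothelial cadherin, fell by 0.28 ± 0.10 and Plvap, the diaphragm protein of leaky vessels, fell by 0.80 ± 0.31. In wt, Plvap fell by 1.59. With DESeq2 size factors neither Cdh5 nor Plvap passed. Cdh5 also lost its call without P5 KO replicate 2 or 3 or P9 KO replicate 2, and Plvap without any one of 9 libraries of the P5 and P9 groups. Under endothelial scaling the junction median turned to -0.19, and Cldn5, Ocln and Esam lost their calls.

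With TMM scaling, most targets and carriers of Wnt signalling were not called in the KO course, where 17.5% of all genes rose and 17% fell. Of 18 Wnt receptors and effectors, 6 rose, 1 fell and 11 did not pass, and under endothelial scaling 3 rose and 7 fell. Of 20 Wnt targets, 1 rose, 5 fell and 14 did not pass, and under endothelial scaling 1 rose and 10 fell. For the difference, 2 receptors and effectors passed upward and 1 downward, and 2 targets passed upward and 3 downward. Axin2, the feedback inhibitor often read as the pathway's activity, had a change of 0.05 (adjusted p = 0.82) and libraries of P9 KO and P5 KO that overlapped. Nkd1 and Tnfrsf19, feedback and receptor targets, both fell, with differences from the wt course of -1.02 ± 0.21 and -0.66 ± 0.15, and Fgfbp1 rose by 1.66 ± 0.20. Lef1, the nuclear partner of beta-catenin, rose in wt by 0.48 and had -0.13 in the KO course, which became a called fall of -0.51 under endothelial scaling. The difference of Lef1 was -0.61 ± 0.19 and lost its call with DESeq2 size factors and without P5 KO replicate 2, P9 KO replicate 1, P5 wt replicate 3 or P9 wt replicate 1 or 2. Fzd4, the receptor for Norrin, rose by 1.17 ± 0.10, with 185, 187 and 184 CPM in P9 KO and 81, 82.9 and 83.8 CPM in P5 KO. Ctnnb1, which encodes beta-catenin, fell by 0.37 ± 0.10.

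Arterial genes split. Of 27, 8 rose and 8 fell in the KO course, where 17.5% of all genes rose and 17% fell. Under endothelial scaling 5 rose and 13 fell. Gja4, the connexin of arterial endothelium, had 24.7, 28.8 and 54.5 CPM in P9 KO, against 131, 128 and 125 CPM in P5 KO, and fell by 1.82 ± 0.21. Its P9 KO libraries were all below P5 KO, with replicate 3 the highest of them. Unc5b, a netrin receptor, and Vegfc, a lymphangiogenic factor, fell, with log2 fold changes of -1.13 ± 0.17 and -1.45 ± 0.16. Edn1, endothelin, rose by 2.06 ± 0.19, and the Notch ligand Dll4 and receptor Notch4 rose by 0.99 ± 0.12 and 0.82 ± 0.11. Dll4 rose in wt as well, by 0.48.

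Of 19 venous genes, 9 rose, 3 fell and 7 did not pass (median 0.91), and 9 passed upward for the difference. Under endothelial scaling 9 rose and 6 fell. Vwf, the von Willebrand factor, had 2585, 2633 and 2739 CPM in P9 KO, against 1125, 1071 and 1489.5 CPM in P5 KO. The interleukin receptor Il1r1 rose by 1.53 ± 0.17. Lcn2 and Slc38a5 are also listed here. Among tip cell and angiogenic genes, 13 of 26 rose and 5 fell, the falls being near the 17% of all genes. Scaled to endothelial identity genes, 11 rose and 9 fell. Angpt2, a ligand that destabilises vessels, had 598, 885 and 467 CPM in P9 KO, against 119.9, 63.5 and 65 CPM in P5 KO, and rose by 2.97 ± 0.25, against 0.90 in wt. The apelin receptor Aplnr fell by 0.97 ± 0.15.

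Of 22 hypoxia and glycolysis genes, 12 rose and 3 fell, the falls being near the 17% of all genes. In the wt course 3 rose, and for the difference 6 passed upward and 1 downward, against 7.27% and 8.44% of all genes. Bnip3 and Ndrg1, hypoxia-inducible genes, rose by 1.49 ± 0.19 and 1.81 ± 0.25, and Vegfa by 1.39 ± 0.19. The difference of Vegfa lost its call under endothelial scaling at 0.61, in the fit of P5 and P9 libraries alone and without any one of several single libraries. Eno1, a glycolytic enzyme, fell by 0.46 ± 0.11. Under endothelial scaling 7 rose and 7 fell, and the list's median of 0.36 became -0.02.

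Matrix genes changed by large amounts in both directions, 7 rising and 9 falling of 27, and 5 rising and 18 falling under endothelial scaling. Pericyte, smooth muscle and fibroblast markers moved in these libraries too, as given below, and their part in the matrix and arterial counts was not tested. Col18a1, the source of endostatin (chr10:77052178-77166548, minus strand), had 91.3, 96.9 and 81.7 CPM in P9 KO, against 513, 648 and 702 CPM in P5 KO. It fell by 2.79 ± 0.15 in the KO course and fell by 0.93 (log2) in the wt course. Adamts8, a protease, and Itga2, a collagen receptor, fell, with log2 fold changes of -2.56 ± 0.22 and -2.51 ± 0.27. Timp3, an inhibitor of metalloproteinases (chr10:86300372-86349506, plus strand), had 661, 728 and 575 CPM in P9 KO, against 106, 105 and 123 CPM in P5 KO. Its KO rise of 2.55 ± 0.12 met a wt fall of -0.39.

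Interferon response genes fell in the KO course, 14 of 22 lower and none higher, where 17% of all genes fell. Their median was -0.85, and 10 passed downward for the difference, against 8.44% of all genes. Without P9 KO replicate 3 the falls of the KO course numbered 9. For the difference the count was 18 without P9 KO replicate 2 and 16 without P5 wt replicate 2, and 5 or 6 without P5 wt replicate 1 or 3, P9 KO replicate 3 or P9 wt replicate 1 or 2. Bst2, a membrane tether of virions, had 42.8, 58.3 and 27.1 CPM in P9 KO, against 86.3, 88.5 and 114 CPM in P5 KO, while the wt groups averaged 50.7 and 51.4 CPM at P9 and P5. The P5 KO libraries were the high ones. Summed over the list, P5 KO had 678 to 847 CPM, above P5 wt at 373 to 573 CPM. The sum in P9 KO was 321 to 604 CPM, which overlapped P9 wt at 471 to 572 CPM. Oasl2 and Oas1a, antiviral genes, fell, with log2 fold changes of -1.81 ± 0.31 and -2.04 ± 0.36.

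Targets of p53 moved in both directions, with 8 rising and 11 falling of 24, where 17.5% of all genes rose and 17% fell. Eda2r, a member of the TNF receptor family, had 3.62, 4.68 and 1.55 CPM in P9 KO, against 26.2, 10.3 and 14.1 CPM in P5 KO. The wt groups averaged 1.05 and 0.767 CPM at P9 and P5. Both KO stages were above wt, and P5 KO was highest. Phlda3 fell by 1.51 ± 0.26, whereas Fas and Sesn1 rose by 2.41 ± 0.22 and 1.16 ± 0.10. Ckap2 and Gtse1, which also act in mitosis, fell, with log2 fold changes of -2.10 ± 0.16 and -2.32 ± 0.25.

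Immediate early genes, which tissue dissociation also induces, went apart between the genotypes. Of 24 tested, 13 rose and 3 fell in the KO course, 11 fell and none rose in the wt course, and 14 were higher for the difference. Ctgf, a YAP target and matricellular protein (chr10:24595442-24598683, plus strand), had 1219, 2017 and 1255 CPM in P9 KO, against 116, 88.8 and 118 CPM in P5 KO, and 57.2, 53.5 and 76.8 and 51.7, 74.9 and 69.6 CPM in P9 wt and P5 wt. The P9 KO libraries stood apart, with a rise of 3.80 ± 0.21. Cyr61, of the same family, rose by 1.12 ± 0.13 in the KO course and fell by 0.47 in wt. Fos, named after its values were seen, had 0.07 in the KO course and -1.32 in wt.

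**Figure D4:**
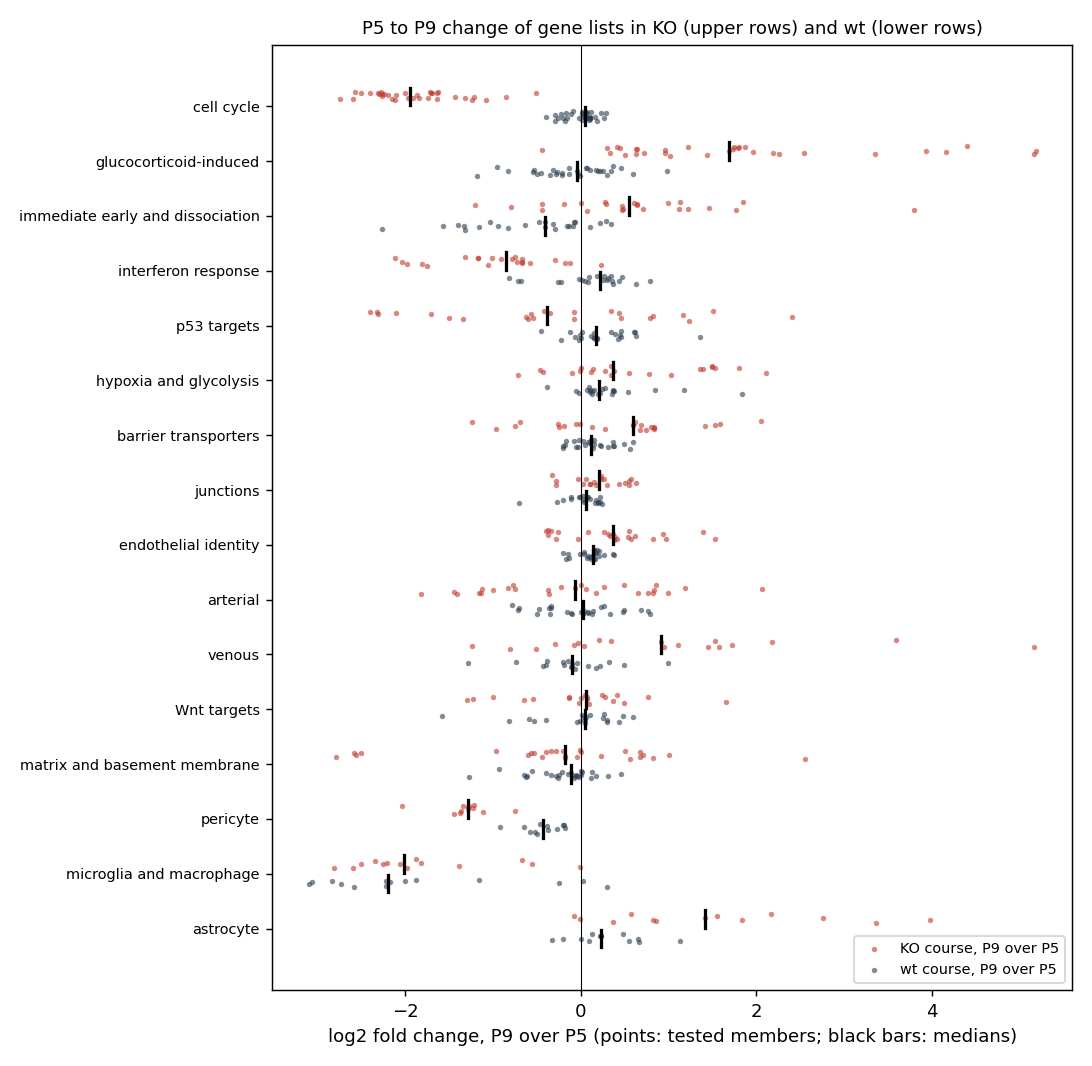
Points are tested members of each gene list, with the KO course above and the wt course below in each row, and black bars are medians of the log2 fold change of P9 over P5. The cell cycle list has a median of -1.94 in the KO course against 0.04 in the wt course, and the glucocorticoid-induced list 1.69 against -0.04.

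Markers of other cell types moved in the KO course, where 17.5% of all genes rose and 17% fell. Some of these lists moved in the wt course too. Of 12 pericyte markers, 11 fell, and all were detected. Their sum was 829 to 2029.9 CPM in P9 KO and 3716 to 5805 CPM in P5 KO, and in wt 3109 to 4219 CPM at P9 and 4485 to 5849 CPM at P5. The pericyte marker Rgs5 fell by 2.04 ± 0.31, and 1 of the 12 passed for the difference. Of 9 smooth muscle markers tested, 6 fell and 1, Smtn, rose, and 3 passed downward for the difference. The sum of the list was 882 to 1014 CPM in P9 KO and 729 to 797 CPM in P5 KO. Most of it was Smtn, with 974, 799 and 796 CPM in P9 KO and 499, 495 and 529 CPM in P5 KO. Of 10 fibroblast markers tested, 4 fell and none rose. Of 14 neuron markers, 7 rose and none fell, and none passed for the difference. Their sum was 350, 270 and 596 CPM in P9 KO, with replicate 3 the highest, against 301 to 332 CPM in P5 KO. Of 14 oligodendrocyte lineage markers, 7 rose and 2 fell in the KO course, and 7 rose and 3 fell in the wt course. For the difference, 2 of them passed upward. Of 11 neural progenitor markers, 5 rose and 1 fell in the KO course, 1 rose in the wt course, and 1 passed downward for the difference. Of 13 astrocyte markers, 10 rose and 7 passed for the difference, and their sum was 1091 to 1663 CPM in P9 KO and 572 to 681 CPM in P5 KO. Agt and Slc1a2 rose by 2.76 ± 0.23 and 2.17 ± 0.18. The astrocyte marker Aqp4 had 59, 34 and 35 CPM in P9 KO, which overlapped 45, 48 and 36 CPM in P5 KO. In the wt course 3 of the 13 rose. Microglia and macrophage markers fell in both courses, 12 of 14 in KO and 10 in wt, with none passing for the difference, and 8 of 15 leukocyte markers stayed under 1 CPM in every KO library. The part of these cell types in the results above was not tested.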

How the data were processed

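RNA of 24 libraries was analysed as raw counts of reads on 1 strand for 45468 genes, which the authors deposited without scaling. The deposited tables also hold FPKM, which equals the count over gene length and library total, and TPM, which sums to the same total in each library. Neither of those 2 units was used for a result. The build is mm10. Per the submitters' processing notes, STAR 2.5.3a, SAMtools 1.5, Trim Galore 0.4.1 and FastQC were used, and the annotation release is not given in the sources used here. A gene was tested where 1 or more of the 8 groups averaged 10 counts or more. The test was the edgeR 4.0.16 quasi-likelihood test in R 4.3.3, with TMM scaling, 1 mean per group over all 24 libraries, 16 residual degrees of freedom and a prior count of 2. Benjamini-Hochberg adjustment ran over all 17159 genes of a two-sided test, and a gene is called, or passed, below an adjusted p of 0.05. SE was derived from the F statistic. CPM of single genes uses totals over the tested genes, and list sums use totals over all genes. The fit was also run on simulated counts with a small share of genes changed, which cannot check the choice of scaling. Alternatives used DESeq2 1.42.0 and limma 3.58.1.

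Gene lists and members were chosen with earlier results of these data known. Lists are described by counts and medians, with no test of the list. Every list count is to be read beside the share of all genes. In the KO course 17.5% of all genes were called higher and 17% lower, and for the difference 7.27% and 8.44%. Under endothelial scaling 1077 of 17159 genes were called higher and 6758 lower in the KO course. Named genes are the SoxF genes and a fixed set of barrier, junction and Wnt genes, and those picked by rank. The ranks gave up to 10 rises and 10 falls of the KO course and of the difference (non-overlapping KO libraries, a higher mean of 50 counts or more), up to 6 genes of the opposite and of the wt-alone class, and up to 4 called members per list and comparison. Not all are reported here. Fkbp5, Tsc22d3, Cdk1, Mt1, Nr3c1, Fos and E2f1 are outside it and were chosen after their values were seen.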

Additional observations from a re-analysis of the deposited data

Results flagged for a closer look

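The P5 to P9 change differed between KO and wt in 2695 genes by the interaction test of edgeR. Among the genes named here, the courses were called in opposite directions for 3, each with a positive difference, KO course minus wt course. The log2 difference was 5.35 for Hif3a, 2.95 for Timp3 and 1.59 for Cyr61.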

How the results depend on the processing

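Alternatives kept the direction of every gene called in the KO course, the wt course or the difference that stayed called. The KO course gave 5972 calls with DESeq2 size factors, 6228 with the DESeq2 test, 5977 with robust limma-trend, 5643 without the low-count filter, 5700 at a minimum mean of 50 counts, 5776 from P5 and P9 libraries alone, 4149 from the 6 KO libraries alone and 7835 under endothelial scaling. Leaving out single libraries gave 4662 to 5986 calls in the KO course, 305 to 1359 in the wt course and 1957 to 3395 for the difference, and 3684 of the 5923 KO calls were made whichever of the 12 libraries was left out. The wt course gave 1579 calls without the low-count filter, 539 under endothelial scaling and 1306 with the DESeq2 test. Deviations from the group mean of same-numbered KO replicates of the 2 stages had correlations of -0.05, 0.10 and 0.08. Between same-numbered KO and wt replicates these were 0.09, -0.02 and 0.09 at P5, and -0.02, -0.08 and 0.02 at P9. Based on 3 libraries per group, these values cannot tell whether equal numbers mark a shared litter. The numbers were not treated as pairs. With a replicate block the calls were 6012, 961 and 2734 for the KO course, the wt course and the difference. Sox7 turned to -0.31 in the KO course under endothelial scaling. Depth limits genes near 0.252 CPM.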

Other observations

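Of 18 circadian genes, 9 rose, 1 fell and 8 did not pass in the KO course, and 4 rose and 2 fell under endothelial scaling. Per1 had 439, 474 and 484 CPM in P9 KO, against 125, 123 and 151 CPM in P5 KO, and Per2 and Npas2 rose by 1.72 ± 0.17 and 1.90 ± 0.27. Per1 is also in the glucocorticoid-induced list. Of 17 heat shock chaperones, 4 rose, 5 fell and 8 did not pass, with a median of -0.25, where 17.5% of all genes rose and 17% fell. The chaperones Hspa1a and Hspb1 were among those that rose, by 3.79 ± 0.33 and 1.19 ± 0.14. Hspa1a rose in wt too, by 2.71, and its difference did not pass, although it did without the low-count filter at 1.09, in the fit of P5 and P9 libraries alone and without P9 wt replicate 2 at 1.42. Of 36 ribosomal protein genes, 21 fell and none rose in the KO course, with -0.82 (log2) in Rplp1 and -0.60 in Rpl3. Of all genes 17% fell. For the difference 5 passed downward, against 8.44% of all genes, and 1 fell in the wt course. The difference of Rplp1 passed only under endothelial scaling at -0.70 and without P5 KO replicate 1 at -0.58. That of Rpl3 lost its call with DESeq2 size factors, without the low-count filter and without any one of several single libraries.

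Gpihbp1, which anchors lipoprotein lipase to capillaries, had 52.8, 40 and 47.5 CPM in P9 KO, against 11.4, 5.34 and 9.23 CPM in P5 KO. Its rise was 2.41 ± 0.23, and the difference was 2.91 ± 0.33. Ptgs2, an inducible prostaglandin synthase, rose by 3.20 ± 0.23, with 102, 141 and 80.6 CPM in P9 KO and 10.6, 12.6 and 11.6 CPM in P5 KO. Spon1 and Ngfr fell in the wt course alone, with log2 fold changes of -1.31 and -1.65, and had 0.21 and -0.21 in the KO course (log2). Under endothelial scaling Ngfr was called in the KO course too, at -0.59.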
